A study of Mus musculus with 32 samples.

Results

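Of the 11666 glucocorticoid receptor (GR) peaks deposited for mouse liver, 1319 (11.3%, 95% Wilson interval 10.7 to 11.9) lay in chromatin that was listed as accessible after dexamethasone but not after vehicle, and coincided with no C/EBPβ peak. These newly open GR peaks without C/EBPβ were chosen by interval overlap of at least 1 bp. Each overlapped a DNase I hypersensitive site (DHS) of the dexamethasone list that itself touched no vehicle DHS (a dex-only DHS), and each overlapped no vehicle DHS and no C/EBPβ peak, whether listed after dexamethasone or after vehicle. The overlaps that chose the peaks are therefore given below as description, without a test.

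GR is a nuclear receptor that stays in the cytoplasm without hormone, moves into the nucleus when it binds a glucocorticoid such as dexamethasone, and binds DNA as a dimer at glucocorticoid response elements. In most tissues it binds mainly where chromatin is already accessible, and at a smaller set of sites its binding goes with a local gain of accessibility, for which it recruits chromatin remodelling complexes. C/EBPβ is a basic leucine zipper factor of hepatocytes that is known for occupying and keeping open many liver enhancers.

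All animals were male C57BL/6 mice of 8 weeks whose adrenal glands, the main source of their own glucocorticoid, had been removed. They received intraperitoneally either dexamethasone at 1 mg/kg as a cyclodextrin complex or the cyclodextrin vehicle, each in 300 ul of saline, and livers were examined after 1 h. The series has 32 samples in 16 groups, of which DNase-seq after dexamethasone and after vehicle and C/EBPβ ChIP-seq after dexamethasone and after vehicle (2 samples each) correspond by assay and treatment to 4 of the lists used here. Further groups were dexamethasone-treated livers given adenovirus (GFP, or a C/EBP mutant that acts as a dominant negative) and polymerase II and input libraries, and these were not analysed here. GR ChIP-seq was made after dexamethasone and after vehicle (2 samples each), and the GR list names no treatment, so the libraries behind it are not known. Each list covers whole liver and is single for its condition, with no height, read count or replicate column, so depth is unknown, the gain of a DHS has no replicate check, and a site open in few cells cannot be told apart from one opened weakly in many. No mm9 genome or gene annotation was used here, so regions are given by position without sequence or gene, and liver markers could not be checked in interval lists.

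Of all GR peaks, 1819 lay in a dex-only DHS outside vehicle DHS (15.6% of those examined), and 1319 of these 1819 (72.5%, 70.4 to 74.5) had no C/EBPβ peak, against 37.6% of all GR peaks. All of the remaining 500 newly open peaks overlapped C/EBPβ as listed after dexamethasone, and 144 of them also C/EBPβ as listed after vehicle. No newly open GR peak had C/EBPβ after vehicle alone. The other GR peaks were 2563 in vehicle DHS without C/EBPβ, 6673 in vehicle DHS with it, 231 in a dexamethasone DHS beyond its vehicle interval and 380 outside both DHS lists.

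Measured from the GR interval, few members sat near a limit of the rule. The smallest overlap of a member with its DHS was 60 bp, at chr19:40878363-40878513, followed by 85 bp at chr1:132713282-132713432. The smallest gap to a vehicle DHS was 141 bp, at chr8:37251180-37251330, and 20 members had a gap under 300 bp. Measured from the DHS, more members were close to this limit. With dex-only DHS required to lie 500 bp or more from any vehicle DHS, 1172 of the 1319 members remained. The smallest gap to a C/EBPβ peak was 8 bp, at chr1:140487334-140487484, where the peak belonged to the dexamethasone list and the nearest vehicle C/EBPβ peak was 15930 bp away. In all, 18 members lay under 100 bp from a C/EBPβ peak. On the other side of that limit, the 500 newly open peaks left out overlapped C/EBPβ by a median of 134 bp, and 1 of them by 10 bp or less. Among the 346 GR peaks outside both DHS lists and without C/EBPβ, the nearest to a dex-only DHS was 23 bp away and 2 were within 100 bp. No GR peak touched a dex-only and a vehicle DHS at once.

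The members lay at the middle of the newly listed sites. Each GR interval is 150 bp wide, and 1306 of the 1319 (99.0%, 98.3 to 99.4) were wholly inside their DHS. The GR centre was a median of 37.5 bp from the DHS centre (quartiles 18 and 71 bp), and the GR interval covered the DHS centre in 1011 cases (76.6%, 74.3 to 78.9). No preferred side was detected, with 645 centres (48.9%, 46.2 to 51.6) on the lower-coordinate side. The nearer DHS edge was a median of 190 bp beyond the GR interval (quartiles 143.5 and 233 bp).

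The DHS around members were wide for dex-only sites. Their median width was 615 bp (quartiles 528 and 711.5 bp, 1302 DHS), against 461 bp (369.75 and 544 bp) for the 13288 dex-only DHS without any GR peak. The share of dex-only DHS that held a member was 1.19% (0.892 to 1.59) at widths of 150 to 385 bp, 3.45% at 386 to 476 bp, 8.04% at 477 to 567 bp and 22.0% (20.7 to 23.3) at 568 to 8347 bp. A wider interval has more room for a peak, and the shares were not adjusted for that. The dex-only list also holds 367 intervals of exactly 150 bp, and 0 of these 367 held any GR peak, which allows a share of up to 0.817%. The narrowest DHS with a member was chr11:113728480-113728731.

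The extremes show how far single sites depart from this pattern. The widest member DHS, chr12:105579325-105587672, measured 8347 bp and held 3 GR peaks, of which 2 were members 1878 bp apart and 1 coincided with C/EBPβ. The next widest were chr9:106132196-106135739 at 3543 bp and chr5:120933098-120935177 at 2079 bp, and 69 members (5.23%) lay in a DHS over 1000 bp. In the 3543-bp site the 2 members were 503 bp apart.

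Most sites held a single member. Of the 1302 DHS, 17 held 2 members and none held more. The 2 centres in these 17 DHS were a median of 322 bp apart (178 to 1878 bp), and the DHS had a median width of 900 bp. A member and a newly open GR peak with C/EBPβ shared the same DHS in 14 cases, involving 15 members. A C/EBPβ peak lay elsewhere in the same DHS for 49 members (3.71%, 2.82 to 4.88), at a median gap of 158 bp. Their DHS had a median width of 884 bp, against 610.5 bp where the DHS held no C/EBPβ peak. Counted by DHS, 3.69% of those with a member held a C/EBPβ peak, against 11.6% of all dex-only DHS. The rule lowers the first share, since it removed GR peaks that overlapped C/EBPβ. For the 49 members, the absence of C/EBPβ holds for the GR interval and not for the whole accessible site.

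**Figure D1:**
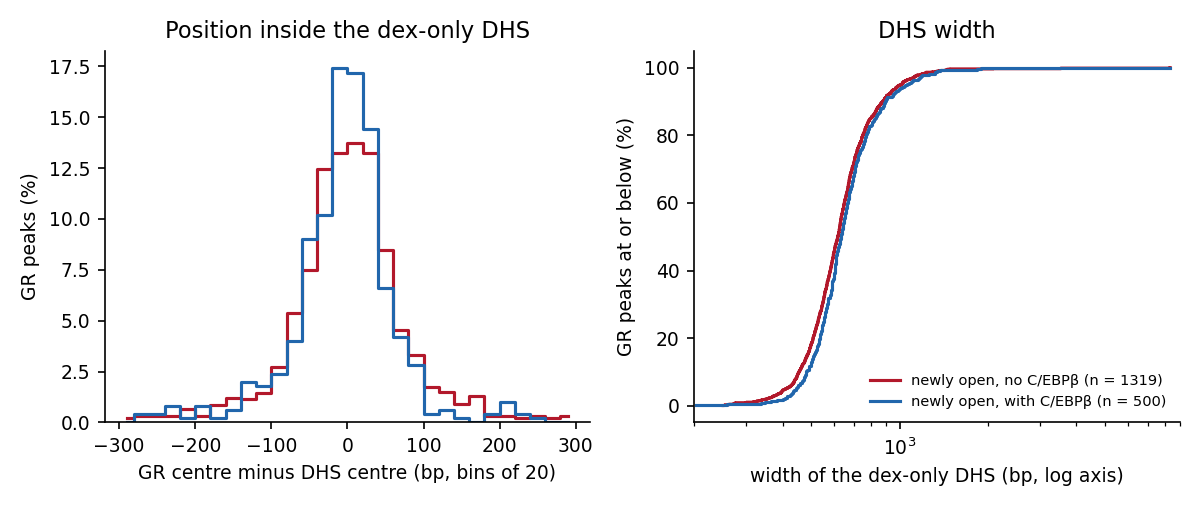
Left, share of GR peaks (%) by the signed distance in bp from the DHS centre to the GR centre, in bins of 20 bp, for newly open peaks without C/EBPβ (red, n = 1319) and with C/EBPβ (blue, n = 500); 19 and 7 peaks lie beyond 300 bp and are not drawn. Right, cumulative share of the same peaks by the width of their dex-only DHS in bp on a log axis, with medians of 617 bp and 630.5 bp; both classes peak at the DHS centre and their width curves run close together.

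Newly open GR peaks with C/EBPβ meet the same accessibility rule and were separated from the members by the C/EBPβ rule alone, so geometry and neighbourhood were compared between these classes. Shares were compared within each of the 20 chromosomes, and the exact two-sided sign test counted the chromosomes that went each way, since peaks of a chromosome are not independent. The p-values of the 6 planned comparisons were adjusted as 1 family (Benjamini-Hochberg), and they compare classes of regions in single lists, not treatments.

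Geometry gave no difference that passed this test at the planned cut-offs. The DHS was wider than the 476-bp median of all dex-only DHS for 1144 of 1319 members (86.7%, 84.8 to 88.5) and for 455 of 500 peaks with C/EBPβ (91.0%, 88.2 to 93.2), against 50% of all dex-only DHS. The difference was -4.27 percentage points (95% Newcombe interval -7.20 to -0.953), with 14 of 20 chromosomes lower for the members (exact sign test, p = 0.115, adjusted p = 0.138). The GR centre lay within 50 bp of the DHS centre for 802 members (60.8%, 58.1 to 63.4) and for 332 peaks with C/EBPβ (66.4%, 62.1 to 70.4), against 62.3% of both together. The difference was -5.60 points (-10.4 to -0.613), again lower on 14 of 20 chromosomes (exact sign test, p = 0.115, adjusted p = 0.138). Both intervals lie below 0, while the chromosomes did not follow uniformly. Fisher's exact test over peaks, which treats each peak as independent, called both (adjusted p = 0.0187 for width and 0.0362 for position). With 100 bp in place of 50 bp, position also passed the test over chromosomes (-3.29 points, exact sign test, adjusted p = 0.00515). With 25 bp it did not (-5.59 points, exact sign test, adjusted p = 0.824).

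Members had a GR neighbour less often than newly open peaks with C/EBPβ and than GR peaks in vehicle DHS without it. Another GR peak centre lay within 10 kb for 532 of 1319 members (40.3%, 37.7 to 43.0) and for 255 of 500 newly open peaks with C/EBPβ (51.0%, 46.6 to 55.4), where the share over all GR peaks was 52.3%. The difference was -10.7 points (-15.7 to -5.54), lower on 16 chromosomes and higher on 3 (exact sign test, p = 0.00443, adjusted p = 0.00885). Against GR peaks in vehicle DHS without C/EBPβ, of which 1391 of 2563 (54.3%, 52.3 to 56.2) had such a neighbour, the difference was -13.9 points (-17.2 to -10.6), lower on 19 of 20 chromosomes (exact sign test, p = 4.01e-05, adjusted p = 0.00024). That class was chosen for lying in vehicle DHS, as 79.2% of all GR peaks did, and the members for lying outside them. This second comparison is therefore not independent of the rule. Nor is the first fully independent of it. The C/EBPβ lists separated its classes, and 57.2% of all GR peaks lay in a vehicle DHS and overlapped C/EBPβ. The nearest other GR centre was a median of 17056 bp away for members (quartiles 3819 and 70905 bp), 9411 bp for newly open peaks with C/EBPβ, 7813 bp for GR peaks in vehicle DHS without C/EBPβ and 7928 bp for those with it. Sparse spacing was also seen in GR peaks outside both DHS lists, of which 147 of 380 (38.7%, 33.9 to 43.7) had another GR peak within 10 kb, while 64.5% of 231 (58.1 to 70.4) did in a dexamethasone DHS beyond its vehicle interval; neither was tested against the members. When dex-only DHS had to lie 500 bp or more from any vehicle DHS, the difference from newly open peaks with C/EBPβ was -10.7 points but no longer passed the threshold (exact sign test, adjusted p = 0.0828).

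**Figure D2:**
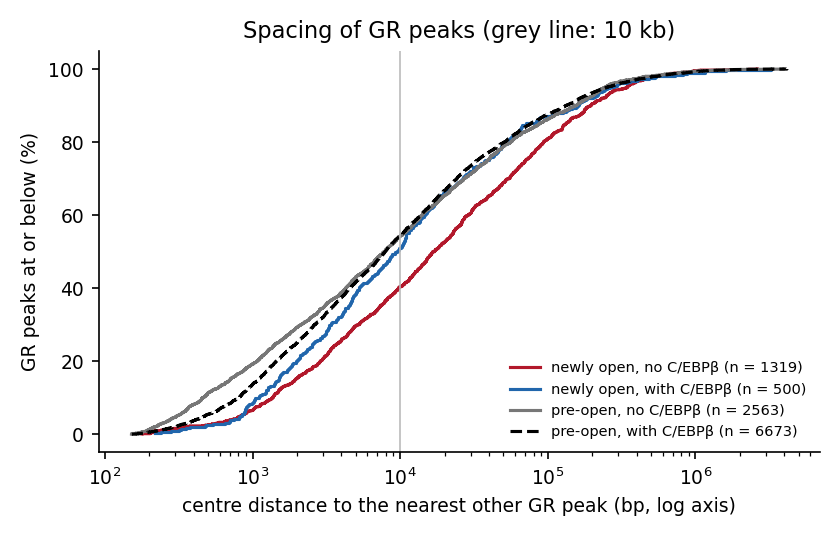
Cumulative share of GR peaks (%) by the distance in bp, on a log axis, from their centre to the nearest other GR centre, for newly open peaks without C/EBPβ (red), newly open peaks with C/EBPβ (blue), and GR peaks in vehicle DHS without (grey) and with C/EBPβ (dashed black). At 10 kb, marked by the grey line, the curve of the members stands at 40.3% and the others at 51.0%, 54.3% and 54.3%.

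Members also had a vehicle DHS within 10 kb less often than newly open peaks with C/EBPβ. A vehicle DHS was within 10 kb of 933 members (70.7%, 68.2 to 73.1) and of 396 newly open peaks with C/EBPβ (79.2%, 75.4 to 82.5). Of all dex-only DHS, 61.9% had one that near, measured from the edge of the DHS and not of the GR interval. The difference between members and peaks with C/EBPβ was -8.46 points (-12.6 to -4.00), lower on 17 of 20 chromosomes (exact sign test, p = 0.00258, adjusted p = 0.00773). With a distance of 5 kb it was -7.17 points and did not pass the threshold (exact sign test, adjusted p = 0.127). The median gap to a vehicle DHS was 4245 bp for members (quartiles 1510 and 12234.5 bp) and 3531 bp for peaks with C/EBPβ (1225.25 and 8071 bp). Within 50 kb a vehicle DHS was listed for 95.5% of members and 98.4% of peaks with C/EBPβ. The rule used the vehicle DHS list for both classes alike and the C/EBPβ lists to separate them. Of all dexamethasone C/EBPβ peaks, 81.1% lay in a vehicle DHS, so this comparison is not independent of the rule.

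The nearness of GR peaks and of vehicle DHS are not separate measures. Where the nearest GR peak within 10 kb lay in a vehicle DHS, a vehicle DHS was by construction also within 10 kb. This covered 358 of 358 such cases for members and 192 of 192 for newly open peaks with C/EBPβ. A division by vehicle DHS therefore fixes much of the GR share on each side, and its sides are not set against each other. Among peaks with a vehicle DHS within 10 kb, 495 of 933 members (53.1%) and 242 of 396 newly open peaks with C/EBPβ (61.1%) had another GR peak within 10 kb, a difference of -8.06 points (-13.7 to -2.22; exact sign test, unadjusted p = 0.0414). Without a vehicle DHS that near, 37 of 386 members (9.59%) and 13 of 104 peaks with C/EBPβ (12.5%) had one, a difference of -2.91 points (-11.0 to 3.14; exact sign test, unadjusted p = 0.791). This division was added after the data were seen.

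For other newly open sites no difference was detected. Another dex-only DHS lay within 10 kb of 562 members (42.6%, 40.0 to 45.3) and of 217 newly open peaks with C/EBPβ (43.4%, 39.1 to 47.8). It did for 35.1% of all dex-only DHS, measured from the edge of the DHS and not of a GR interval. The difference of -0.792 points between members and peaks with C/EBPβ has an interval of -5.91 to 4.26, so differences of several points in either direction lie inside it (exact sign test, p = 0.824, adjusted p = 0.824).

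**Figure D3:**
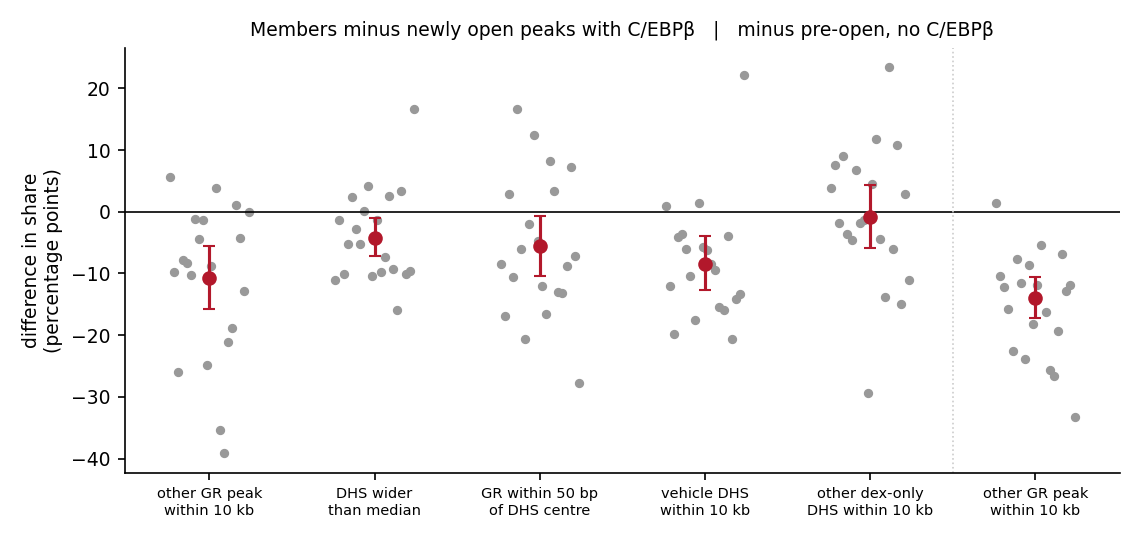
Difference in share, in percentage points, for the 6 tested measures, with newly open GR peaks without C/EBPβ minus newly open peaks with C/EBPβ in the first 5 columns, and minus GR peaks in vehicle DHS without C/EBPβ in the last. Grey points are the 20 chromosomes and red points the pooled difference with its 95% Newcombe interval; the pooled values run between -13.9 and -0.792, with most chromosomes below 0 for GR spacing and for vehicle DHS.

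Set against dex-only DHS without GR, in comparisons added after the data were seen, the sites of the members lay nearer to other accessible chromatin. A vehicle DHS was within 10 kb of 925 of the 1302 DHS with a member (71.0%, 68.5 to 73.4) and of 8019 of the 13288 without GR (60.3%, 59.5 to 61.2), a difference of 10.7 points (8.04 to 13.2), higher on 19 of 20 chromosomes. Another dex-only DHS was within 10 kb of 558 (42.9%, 40.2 to 45.6) and of 4516 (34.0%, 33.2 to 34.8), a difference of 8.87 points (6.09 to 11.7), also higher on 19 of 20 chromosomes. Both differences had p = 4.01e-05 by the exact sign test (adjusted p = 8.01e-05 over the 4 added comparisons). The rule used both DHS lists, so these comparisons are not independent of it. The DHS without GR were also narrower (median 461 bp against 615 bp) and were not filtered for C/EBPβ. A C/EBPβ peak lay in 9.17% of them and in 3.69% of the DHS with a member. The comparisons were not adjusted for this. In the share with a vehicle DHS within 10 kb, the members stood above dex-only sites without GR and below newly open GR peaks with C/EBPβ.

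The vehicle DHS nearest to a member was described by what it held. It carried a GR peak for 356 members (27.0%, 24.7 to 29.5) and for 172 newly open peaks with C/EBPβ (34.4%, 30.4 to 38.7), against 15.4% of all vehicle DHS, a difference of -7.41 points (-12.3 to -2.69) that did not pass the test over chromosomes (exact sign test, p = 0.263, adjusted p = 0.351). It carried a vehicle C/EBPβ peak for 477 members (36.2%, 33.6 to 38.8) and for 191 peaks with C/EBPβ (38.2%, 34.0 to 42.5), against 31.1% of all vehicle DHS, a difference of -2.04 points (-7.06 to 2.88; exact sign test, p = 0.824, adjusted p = 0.824). The rule separated these classes by the C/EBPβ lists, so no conclusion is drawn from the C/EBPβ comparison. The nearest vehicle DHS was absent after dexamethasone for 113 members (8.57%, 7.17 to 10.2) and for 36 newly open peaks with C/EBPβ (7.2%, 5.25 to 9.81). Of all vehicle DHS, 14.9% were absent. These shares are given without a test because the rule used the same 2 lists.

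Distances to C/EBPβ are a description, since the rule removed every peak that overlapped C/EBPβ. The nearest dexamethasone C/EBPβ peak was a median of 9336 bp away (quartiles 2702.5 and 31116 bp), and the nearest vehicle one 12361 bp (3431.5 and 40321.5 bp). A C/EBPβ peak of either list lay within 500 bp of 55 members (4.17%), within 1 kb of 136 (10.3%), within 10 kb of 697 (52.8%, 50.1 to 55.5) and within 100 kb of 1238 (93.9%). For GR peaks in vehicle DHS without C/EBPβ, chosen by the same C/EBPβ rule, these shares were 24.9%, 33.3%, 71.9% and 96.5% of 2563. The classes are not alike in accessibility, since the rule put the members outside vehicle DHS. Most C/EBPβ peaks of the dexamethasone list (81.1%) lay in a vehicle DHS, so the gap between these shares is not independent of the rule. A dexamethasone C/EBPβ peak lay within 10 kb of 677 members (51.3%), against 604 (45.8%) for a vehicle C/EBPβ peak, and the 2 lists differ in length (25392 and 22714 peaks). The nearest dexamethasone C/EBPβ peak lay in a vehicle DHS for 989 of the 1319 members (95% interval 72.6% to 77.2%), where 81.1% of all C/EBPβ peaks of that list did.

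**Figure D4:**
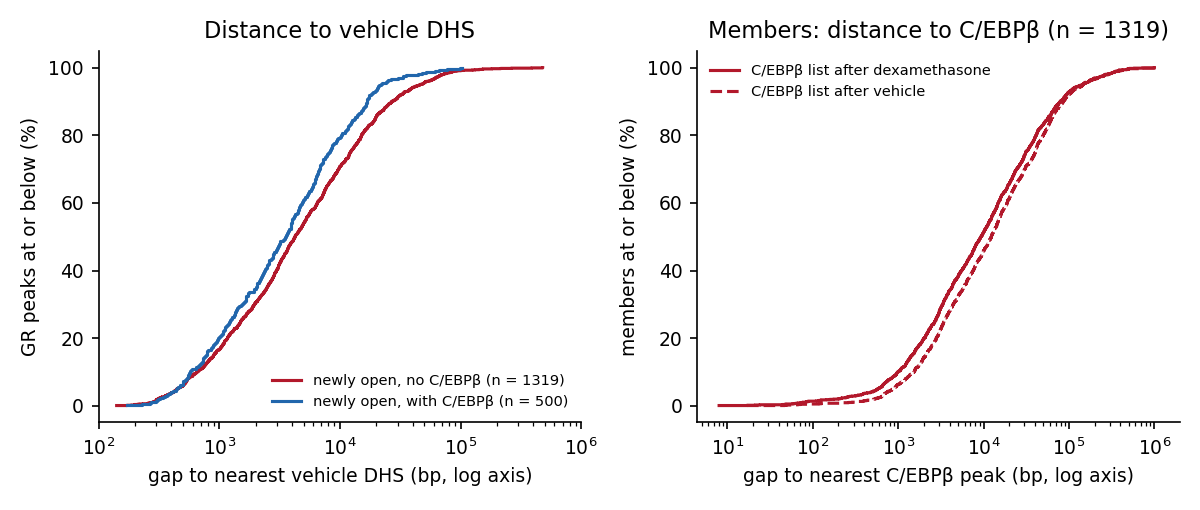
Left, cumulative share of newly open GR peaks without C/EBPβ (red, n = 1319) and with C/EBPβ (blue, n = 500) by the gap in bp, on a log axis, to the nearest vehicle DHS, with medians of 4245 bp and 3531 bp. Right, cumulative share of the members by the gap to the nearest C/EBPβ peak listed after dexamethasone (solid) and after vehicle (dashed), with medians of 9336 bp and 12361 bp; 133 members lie within 1 kb of a dexamethasone C/EBPβ peak.

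For the 532 members with another GR peak within 10 kb, the nearest one lay in a vehicle DHS in 358 cases (67.3%), 250 with C/EBPβ and 108 without, where 79.2% of all GR peaks lay in a vehicle DHS. It was another member in 99 cases (18.6%), where members were 11.3% of all GR peaks, and a newly open peak with C/EBPβ in 46 (8.65%). For the 255 newly open peaks with C/EBPβ and such a neighbour, the nearest was in a vehicle DHS in 192 cases (75.3%), a member in 46 (18.0%) and another of their own class in 11 (4.31%). For the 1391 GR peaks in vehicle DHS without C/EBPβ and with such a neighbour, the nearest was in a vehicle DHS in 1177 cases (84.6%) and a member in 104 (7.48%). These shares are given without a test. They include neighbours in the same DHS, and 17 DHS held 2 members. Linked at 10 kb between centres, 1188 of the 1319 members stood alone among members, 53 chains had 2, 7 had 3 and 1 had 4.

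The members' surroundings varied. No like shares are given here for other GR peaks, so the following describes the members only. In 310 of them (23.5%) no GR peak, no vehicle DHS and no C/EBPβ peak lay within 10 kb, and in 426 (32.3%) all of these did. The median DHS width was 601.5 bp (quartiles 510 and 703.75 bp) in the first set and 629.5 bp (552 and 728.25 bp) in the second, and the GR centre was a median of 41.5 bp and 34.5 bp from the DHS centre. Members without a vehicle DHS within 10 kb had a median width of 618 bp, and those with one 616 bp.

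The most remote members show the ends of these distances. The member farthest from any vehicle DHS was chr18:29934602-29934752, with a gap of 479047 bp, and its nearest C/EBPβ peak was 725664 bp and its nearest GR centre 1930037 bp away. Next came chr6:64567567-64567717, with 387982 bp to a vehicle DHS, and chr15:60103653-60103803, with 263727 bp. The member farthest from another GR peak was chr1:16297664-16297814, at 2629819 bp. It nevertheless lay 1171 bp from a vehicle DHS and 1394 bp from a vehicle C/EBPβ peak, while the nearest dexamethasone C/EBPβ peak was 78939 bp away. The member farthest from C/EBPβ was chr16:74649594-74649744, at 1001637 bp from a peak of either list. All of these had DHS of 497 to 831 bp, in the range of the other members.

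Most windows of 100 kb with a member held only 1. The 1319 members fell into 1151 windows of 100 kb, of which 1005 held 1 member, 127 held 2, 16 held 3 and 3 held 4. In 440 of these windows, with 469 members, every GR peak was a member. No like counts are given here for other GR peaks, so these counts describe the members only.

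Of the windows with 4 members, the one with most GR peaks was on chromosome 17, from 28600000. It held 9 GR peaks, of which 4 were members, 1 was newly open with C/EBPβ, 3 lay in a dexamethasone DHS beyond its vehicle interval, 1 was outside both DHS lists and 0 lay in a vehicle DHS. There were 13 DHS after dexamethasone and 4 after vehicle, and 5 C/EBPβ peaks after dexamethasone and 1 after vehicle. The 4 members spanned 4762 bp from first to last base. They were chr17:28652968-28653118 in a DHS of 631 bp, chr17:28655007-28655157 in one of 993 bp, chr17:28655919-28656069 in one of 740 bp and chr17:28657580-28657730 in one of 761 bp. Their gaps to a vehicle DHS were 2806, 4265, 3353 and 1692 bp, in the same order. The third had a dexamethasone C/EBPβ peak 64 bp away, while the nearest vehicle C/EBPβ peak was 16271 bp away. The window just before it, from 28500000, held 3 further members among 10 GR peaks, 2 of them 644 bp apart in a single DHS of 1345 bp (chr17:28578405-28579750).

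The other windows with 4 members were less dense. On chromosome 10 from 94600000, 4 of 8 GR peaks were members, 2 were newly open with C/EBPβ and 2 lay in vehicle DHS, and there were 16 DHS after dexamethasone and 6 after vehicle. One member there, chr10:94607588-94607738, shared a 902-bp DHS with a newly open GR peak with C/EBPβ, and lay 205 bp from a dexamethasone C/EBPβ peak. The remaining 3 members of that window were in DHS of 489, 743 and 341 bp. On chromosome 8 from 11200000, all 4 GR peaks were members, in DHS of 630, 665, 628 and 274 bp, with 11 DHS after dexamethasone and 4 after vehicle. That window held 1 C/EBPβ peak after dexamethasone and 2 after vehicle, the nearest of them 7913 bp from a member. Of the windows with 3 members, the GR-richest lay on chromosome 9 from 48500000, with 14 GR peaks of which 10 were in vehicle DHS, and on chromosome 10 from 59400000, with 12 of which 5 were.

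By chromosome, members made up between 8.83% (chromosome 18, 34 of 385 GR peaks) and 17.6% (chromosome X, 18 of 102), with a median of 11.4%. The 95% Wilson interval of 18 of the 20 chromosomes contained the share over all GR peaks, 11.3%. The exceptions were chromosome X (11.5 to 26.2) and chromosome 2 (13.7%, 11.5 to 16.3), both with a higher share. Of newly open GR peaks alone, members made up 60.7% to 81.1% per chromosome.

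**Figure D5:**
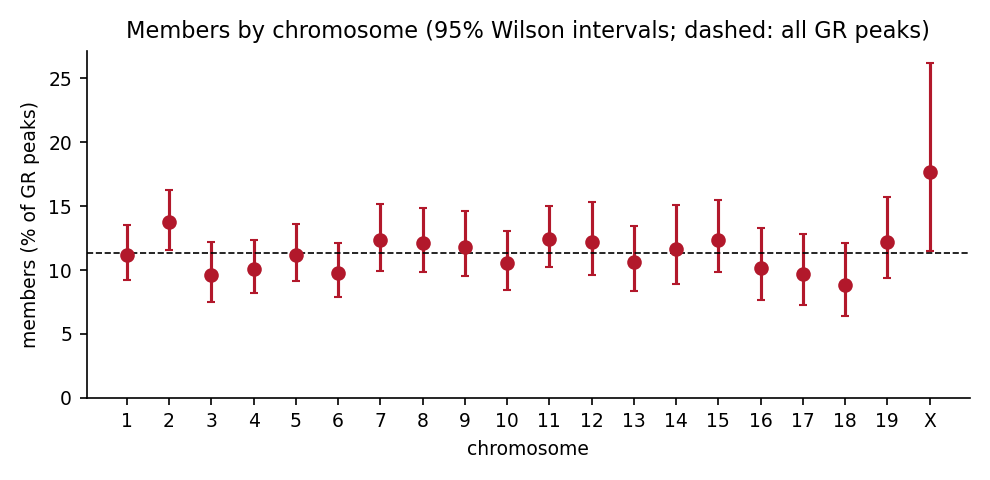
Newly open GR peaks without C/EBPβ as a share of all GR peaks (%) on each of the 20 chromosomes, with 95% Wilson intervals; the dashed line is the share over all GR peaks, 11.3%. Chromosomes 2 (13.7%) and X (17.6%) have intervals above the line, and X rests on 102 GR peaks.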

How the data were processed

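Used here were 5 interval lists, and their other values are positions only, as the authors deposited them: chromosome, start, end and an identifier. The submitters' processing notes name CASAVA 1.8 and the mm9 build; for aligner, peak caller, threshold and pooling, nothing is given in the sources used here. They hold no counts, scores or signal. Unused columns with per-sample values numbered 0. After 3 repeated rows of the dexamethasone DHS list were dropped, 63470 remained. Interval ends were taken as exclusive, and coordinates are those of the lists, unchanged.

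Shares have 95% Wilson intervals and differences 95% Newcombe intervals, which cover counting error only. Classes were compared by exact two-sided sign tests over chromosomes, adjusted by Benjamini-Hochberg within 6 planned and 4 added comparisons. The members, lists and comparisons were chosen with earlier results of these data known. Regions were named by a fixed rule: the 5 windows of 100 kb with most members, the DHS with most members, the widest and narrowest member DHS, the members farthest from vehicle DHS, GR and C/EBPβ, and those next to each limit; where 17 DHS tied, they were summarised. A planned motif search needs mm9 sequence and was not run. The code was tested on simulated lists, and bedtools 2.31.1 also counted 1319 members. Scripts ran in Python 3.11.15. Statistics came from scipy 1.17.1, tables were handled with pandas 2.3.3 and numpy 2.4.6, and plots drawn with matplotlib 3.10.9.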

Additional observations from a re-analysis of the deposited data

How the results depend on the processing

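Positions without heights limit all of this: a weak C/EBPβ or vehicle DHS signal that was not listed counts as absent, and its part was not tested. The number of members stayed within 1.5 times 1319 in each alternative tried, and between 1207 and 1301 when 1 chromosome was left out. Of 115 alternatives to the 6 planned and 4 added differences and the number of members, 103 kept direction and side of the threshold. Not all of the 115 could change a result, so the 103 overstate how much was tested. No newly open GR peak had C/EBPβ after vehicle alone. The dexamethasone C/EBPβ list alone therefore left the same 1319 members and 500 newly open peaks with C/EBPβ. It changed only GR peaks in vehicle DHS without C/EBPβ, from 2563 to 2600. Leaving out DHS of 150 bp and of the narrowest member width kept 1318 members. Another GR peak within 10 kb, against newly open peaks with C/EBPβ, no longer passed with dex-only DHS 500 bp or more from vehicle DHS (-10.7 points) or for peaks with no vehicle DHS within 10 kb (-2.91 points). A vehicle DHS nearby no longer passed at 5 kb (-7.17 points). DHS width (-4.27 points) and the centred position (-5.60 points) passed by Fisher's exact test over peaks. Position also passed the sign test over chromosomes at 100 bp in place of 50 bp (-3.29 points). Position reversed, without passing, when C/EBPβ within 500 bp counted as present (0.259 points). Another dex-only DHS nearby reversed, without passing, when overlap had to cover most of the shorter interval (0.0899 points) and with dex-only DHS 500 bp or more from vehicle DHS (0.417 points). The added share of nearest vehicle DHS with GR passed with both other overlap rules and by Fisher's test. The causes of these changes were not tested. With each chromosome left out in turn, GR spacing ranged from -11.9 to -9.12 points (against GR peaks in vehicle DHS from -15.1 to -13.3), vehicle DHS from -9.13 to -7.77, width from -4.73 to -3.78, position from -6.54 to -4.65 and other dex-only DHS from -1.72 to 1.07 points, the last above 0 only without chromosome 10. No paired analysis was possible because each list is single for its condition and carries no replicate.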
